A study of Oryctolagus cuniculus with 4 samples.

Results

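The genes described here encode the motile cilium axoneme, the microtubule scaffold and motors that make a cilium beat, in day 6 rabbit blastocysts. They were found by words in the probe descriptions of the array (dynein axonemal, radial spoke, sperm associated antigen, tektin, cilia and flagella, ciliary dyskinesia) and by the names of 17 further genes, which were themselves selected on the ratio of parthenotes to fertilised embryos in these data. No description held cilia and flagella or ciliary dyskinesia. The other words found 52 probes of 13 genes, 5 of which were also among the 17, so the family holds 25 genes with 90 probes, of 10375 genes with a named probe. Because the family was chosen from the same 4 arrays, its ratios are given as a description, with no test.

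Each of the 4 arrays carried a pool of 7 parthenotes labelled with Cy3 and a pool of 7 fertilised embryos labelled with Cy5, with 150 ng of total RNA per labelling. All embryos were New Zealand White blastocysts at day 6. The parthenotes were oocytes activated by electrical pulses, cycloheximide and 6-DMAP and then transferred to the oviducts of recipient does, so that they developed in a reproductive tract without a paternal genome. The fertilised embryos, the untreated controls, came from does that were artificially inseminated and developed in those does. No array carried the dyes the other way round, so dye and group cannot be told apart, and the does that hosted the embryos differed between groups as well. The arrays are called array 1 to array 4 here, and array 1 pairs the first parthenote pool with the first fertilised pool. The labels name them as replicates without saying whether the pools shared does, so the spread between arrays may be partly technical.

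A motile cilium is built on a ring of doublet microtubules around a central pair. Outer and inner dynein arms slide neighbouring doublets past each other, radial spokes carry signals from the central apparatus to the arms, and proteins inside the doublets hold the tubules together. In the female tract such cilia are carried by the multiciliated cells of the oviduct and the endometrium, where FOXJ1 drives the program of axoneme genes. A blastocyst pool is a bulk sample, in which fewer cells of a type and less RNA per cell cannot be told apart.

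The values are processed signals, the scanner software's background-subtracted and dye-normalised intensities in arbitrary units, and log2 ratios of parthenote over fertilised. A probe is called well above background where the software marked it so. Where a probe stayed near background in every fertilised pool, its size of difference is only a bound, written as at least N-fold. This bound sets the parthenote mean against the lowest fertilised signal that was well above background on each array, on normalised log2 values, and dye bias can shift it, as no dye was swapped. Each gene is represented by its brightest probe over both channels, and levels are compared within a probe only.

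On these arrays the axoneme genes were mostly higher in parthenotes. The median log2 ratio of the 25 genes was 1.98, against 0.00 for all 10375 named genes. A ratio above 0 on all 4 arrays was found in 17 of the 25 genes, and a ratio below 0 on all 4 in 0 genes. Of all 10375 named genes, 2352 were above 0 on all 4 arrays and 2680 below. In the limma fit over all probes, 12 of the 25 genes passed an adjusted p of 0.05 as higher, where 11.6% of all named genes did, and 0 passed as lower, where 12.3% did. At an unadjusted p under 0.05, 17 were higher and 0 lower, where 15940 of all 43595 probes passed in either direction. The methods' own test of each probe, with the same adjustment, called 9 higher and 0 lower. It called 4435 of all probes in either direction. Nothing is read from these counts, since this contrast chose the genes.

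The family was uneven. The 17 genes chosen by name had a median log2 ratio of 2.42, and 11 of them passed. The 8 genes that only the words found had a median of 0.25, and 1 of them passed, the tektin TEKT3. Detection was as uneven as the ratio, since 14 genes were well above background in parthenotes on all 4 arrays and 9 were so in fertilised embryos, while 3 genes, FOXJ1, SPAG16 and DNAH8, were not so in either channel on any array.

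**Figure D1:**
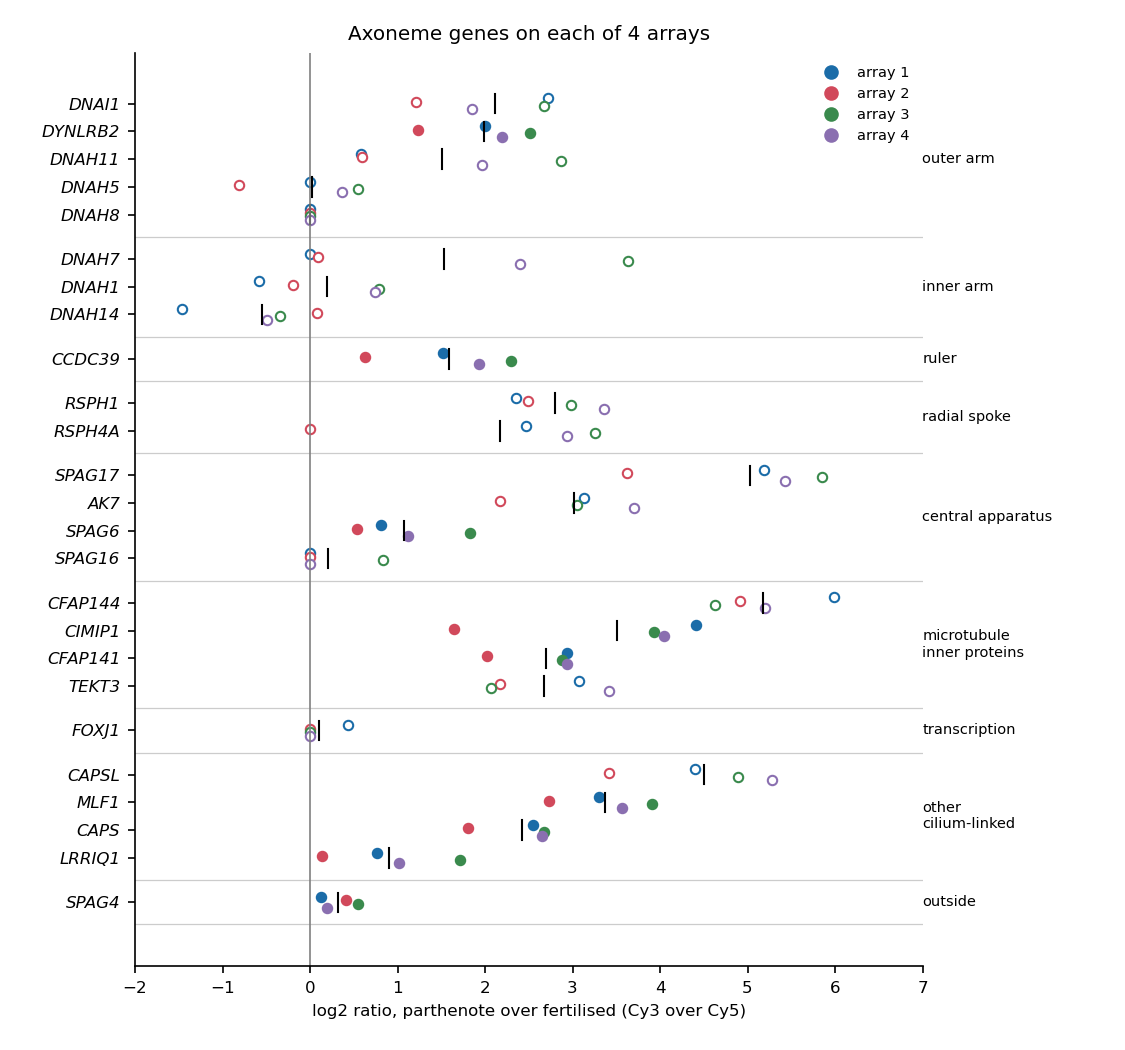
Log2 ratio of parthenote over fertilised (x axis) for the brightest probe of each of the 25 genes, grouped by the part of the axoneme; each point is 1 array, the bar is the mean of the 4, and filled points mark genes well above background in fertilised embryos on all 4 arrays. Open points mark genes whose fertilised signal was near background on at least 1 array, where the distance from 0 is not a measured size; the red points of array 2 lie at the left of most genes.

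By the brightest probe, the parthenote pools of 4 genes were well above background on every array and the fertilised pools on none, and these were CFAP144, SPAG17, CAPSL and RSPH1. Of all named genes, 0.26% had this pattern. For SPAG17, CAPSL and RSPH1 it held over all their probes in the fertilised channel, whereas 1 of the 5 probes of CFAP144 was well above background in fertilised embryos on 1 array. The brightest probes of CFAP144, CAPSL and RSPH1 are printed because they were well above background in parthenotes throughout and in fertilised embryos on no array, and that of CIMIP1 because its ratio varied most between arrays among the genes measured in both groups. All are 60 bases long, written 5′ to 3′ in the sense of the transcript.

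CFAP144: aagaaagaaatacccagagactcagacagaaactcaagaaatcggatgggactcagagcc
CAPSL: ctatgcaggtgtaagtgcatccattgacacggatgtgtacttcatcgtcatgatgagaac
RSPH1: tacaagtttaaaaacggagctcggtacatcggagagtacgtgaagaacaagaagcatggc
CIMIP1: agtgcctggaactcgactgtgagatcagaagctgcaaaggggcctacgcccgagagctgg

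The array files place the CFAP144 probe at chr13:123540290-123540349 and the CAPSL probe at chr11:57211905-57211964, both on the minus strand of a rabbit genome whose build the files do not name. They give no position for the probes of RSPH1 and CIMIP1. Many genes of the family had 5 probes that start 1 base apart, so the probes of a gene are repeated readings of almost the same sequence and not independent measurements.

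The microtubule inner proteins sit inside the doublets and brace their walls, and the family held 4 of them. CFAP144, one of these proteins, gave parthenote signals of 172, 97.8, 293 and 183 on arrays 1 to 4, and fertilised signals of 2.72, 3.24, 11.8 and 4.98, none well above background. The groups did not overlap on any array, and for this probe the parthenote signal was at least 3.95-fold higher. The log2 ratios of its 5 probes averaged 4.88 to 5.77, sizes that rest on fertilised signals near background. The probe with the mean of 4.88 was well above background in fertilised embryos on array 3, where its fertilised signal was 22.1 and its parthenote signal 262.

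CIMIP1, also known as C20orf85 and a protein of the ciliary microtubules, was measured in both groups on all arrays. Its parthenote signals were 432, 457, 1499 and 848, and its fertilised signals were 20.2, 146, 98.6 and 51.5. The log2 ratios were 4.42, 1.65, 3.93 and 4.04, with a mean of 3.51 ± 1.26 (SD, n = 4). The fertilised signal was highest on array 2, where the ratio was lowest, and the parthenote signal there was close to that of array 1.

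CFAP141, another protein of this group, had parthenote signals of 242, 145, 430 and 275 against fertilised signals of 31.5, 35.7, 58.6 and 35.9. The mean log2 ratio was 2.69 ± 0.45 (SD, n = 4). Arrays 1, 3 and 4 lay within 2.88 and 2.94, and array 2 stood apart at 2.02. TEKT3, a tektin that forms filaments along the inner wall of the doublets, was well above background in parthenotes on 3 arrays and in fertilised embryos on none. Its parthenote signals were 23.5, 11.99, 52.4 and 25.4 and its fertilised signals 2.80, 2.66, 12.5 and 2.39, and the difference was at least 1.29-fold.

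The central apparatus is the pair of single microtubules and their projections in the middle of the axoneme, and SPAG6, SPAG16, SPAG17 and AK7 belong to it. SPAG17, a large scaffold of a projection, gave parthenote signals of 106, 40.9, 210 and 101, and fertilised signals of 2.91, 3.33, 3.63 and 2.35. No fertilised value was well above background, and the difference was at least 2.71-fold. Its 4 probes gave mean log2 ratios from 3.34 to 5.02.

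AK7, an adenylate kinase of cilia, had parthenote signals of 120, 63.7, 175 and 121 and fertilised signals of 13.7, 14.1, 21.2 and 9.29, the latter well above background on 3 arrays. The log2 ratio averaged 3.01 ± 0.63 (SD, n = 4), lowest on array 2 at 2.17. SPAG16, the remaining partner of SPAG6 and SPAG17, was not well above background in either channel and is given no fold. Its parthenote signals lay between 3.08 and 5.04 and its fertilised signals between 2.55 and 2.95.

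SPAG6, an armadillo-repeat protein of the central pair, gave readings that depended on the probe. Its 5 probes overlap along bases 1237 to 1407 of 1 transcript, and they are shown because the probes that were well above background in fertilised embryos on all 4 arrays share a stretch that the others lack. Capitals mark this stretch, bases 1297 to 1316 of the transcript, in the probes that hold it. The names give the first base of each probe.

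SPAG6 1237: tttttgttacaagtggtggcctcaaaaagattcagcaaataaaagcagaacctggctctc
SPAG6 1257: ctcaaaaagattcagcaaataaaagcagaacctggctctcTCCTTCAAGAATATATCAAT
SPAG6 1288: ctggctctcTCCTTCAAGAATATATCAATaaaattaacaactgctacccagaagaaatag
SPAG6 1328: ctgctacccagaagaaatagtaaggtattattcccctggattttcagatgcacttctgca
SPAG6 1348: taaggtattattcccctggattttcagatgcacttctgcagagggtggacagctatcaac

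On the minus strand of chromosome 16 the probe at base 1237 lies at chr16:38854374-38854433 and the probe at base 1288 at chr16:38854323-38854382, each within 1 block of 60 bases. The probes at bases 1328 and 1348 span 6843 bases of the genome, from chr16:38847500-38854342 and chr16:38847480-38854322, and so read across an exon junction. The probes at bases 1257 and 1288, with the marked stretch, were the only ones of the 5 that were well above background in fertilised embryos on all 4 arrays.

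The probe at base 1288, the brightest, had parthenote signals of 257, 102, 262 and 184 and fertilised signals of 146, 70.2, 73.6 and 84.5, with a mean log2 ratio of 1.08 ± 0.56 (SD, n = 4). The probe at base 1257 had fertilised signals from 35.9 to 49.4 and a mean of 1.40 ± 0.64 (SD, n = 4). The probe at base 1348 had parthenote signals of 175, 70.4, 370 and 195 and fertilised signals of 2.70, 2.54, 3.89 and 2.28, none well above background, so that its difference was at least 4.11-fold.

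The probe at base 1237 was likewise not well above background in fertilised embryos, and its difference was at least 2.26-fold. That at base 1328 was so on 1 array, array 2, with a signal of 26.6 against 2.70, 9.60 and 3.55 on arrays 1, 3 and 4. All 5 probes were higher in parthenotes on all 4 arrays. The size of the difference for SPAG6 therefore rests on the probe, and why the probes differed was not tested.

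**Figure D2:**
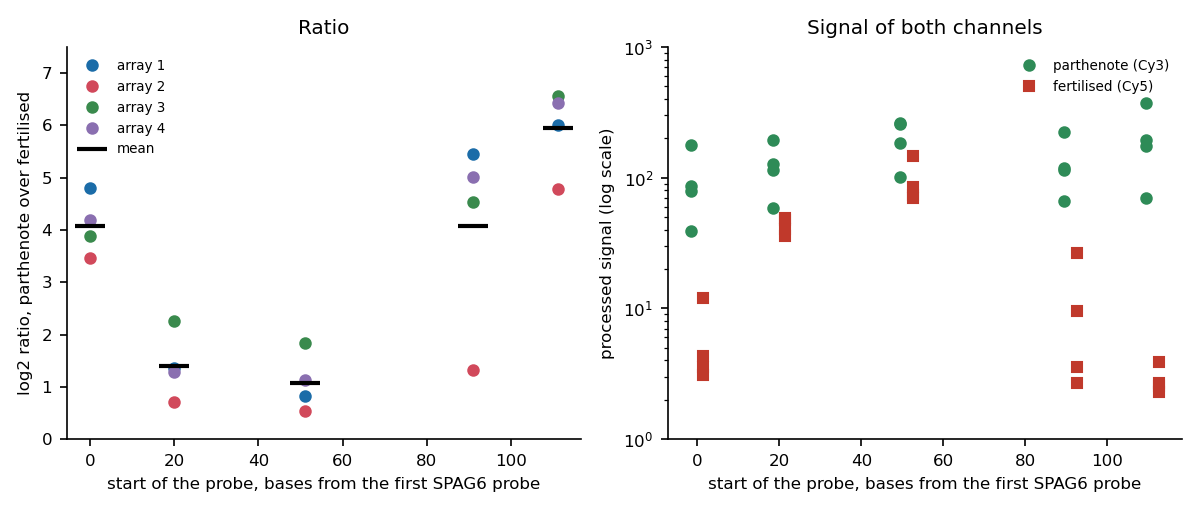
The 5 probes of SPAG6, placed by the distance of their first base from that of the first probe in the transcript (x axis, bases): left, the log2 ratio of parthenote over fertilised on each array with the mean as a bar; right, the processed signal of both channels on a log scale, 1 point per array. The channels lie closest together at the probes 20 and 51 bases from the first, where the fertilised signals were well above background on all 4 arrays, and at the fourth probe the fertilised signal was so on array 2.

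Radial spokes are T-shaped structures that reach from the doublets to the central apparatus. RSPH1, of the spoke head, had parthenote signals of 35.7, 28.0, 33.8 and 31.2 and fertilised signals of 6.98, 4.96, 4.29 and 3.05, and the difference was at least 1.36-fold. Unlike most of the family its parthenote signal was nearly level over the arrays. RSPH4A, also of the spoke head, was well above background in parthenotes on 2 arrays, with signals of 15.4, 3.42, 31.5 and 17.2, and in fertilised embryos on none, with signals from 2.25 to 3.28. On array 2 it was at background in both channels and its deposited ratio was 0. On the other arrays the parthenotes were higher, but RSPH4A did not pass. As its parthenote signal was well above background on 2 arrays only, the bound of 1.20-fold over the 4 does not establish a difference.

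The outer dynein arms provide most of the beat's power. DNAI1, an intermediate chain that anchors the arm, had parthenote signals of 50.03, 17.9, 64.4 and 44.9, well above background on 3 arrays, against fertilised signals of 7.62, 7.74, 10.13 and 12.5, well above background on 1. Its mean log2 ratio was 2.11 ± 0.72 (SD, n = 4), and its 5 probes gave 2.11 to 2.99. Only 1 of the 5 probes was well above background in fertilised embryos on any array, so these sizes rest on signals near background. DYNLRB2, a roadblock light chain, was measured in both groups on all arrays, with parthenote signals of 618, 420, 824 and 546 and fertilised signals of 155, 179, 144 and 120. Its mean log2 ratio was 1.98 ± 0.54 (SD, n = 4), with 5 probes between 1.95 and 2.00.

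DYNLRB1, its close relative in cytoplasmic dynein, lay on the other side of 0, with log2 ratios of -0.19, -0.09, -0.16 and -0.15. The ratios of the pair of light chains did not overlap on any array. The probes' cross-reaction between these relatives cannot be measured from the arrays.

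The heavy chains, the motors themselves, were found by the words and were close to background. DNAH11, of the outer arm, was well above background in parthenotes on 1 array, array 3, where its signal was 20.5, while its parthenote signals on arrays 1 and 2 were 4.48 and 4.20. Fertilised signals ran from 2.59 to 2.98, and DNAH11 did not pass. Its parthenote signal was near background on the other arrays, so the bound of 1.03-fold does not establish a difference. Its second probe was not well above background in either channel, with a deposited ratio of 0 on all 4 arrays. DNAH8, a paralogue used mainly in sperm, was at background on every array, with a deposited ratio of 0. DNAH5, the other outer arm heavy chain, had log2 ratios of 0.00, -0.82, 0.55 and 0.36, which lie on both sides of 0.

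Among the inner arm heavy chains, DNAH7 had log2 ratios of 0.00, 0.09, 3.63 and 2.40, so that its mean of 1.53 rested on arrays 3 and 4. On array 2 its brightest probe showed 67.0 in parthenotes and 62.9 in fertilised embryos. Its 5 probes, shifted by single bases, gave means from 1.29 to 2.56, and 1 of them was above 0 on all arrays, with log2 ratios of 1.92, 1.22, 3.84 and 3.28. DNAH1 had log2 ratios of -0.58, -0.20, 0.79 and 0.74. DNAH14 had 18 probes, of which 15 were not well above background in either channel and 11 had a deposited ratio of 0 on all 4 arrays, and its brightest probe, well above background in parthenotes on 1 array and in fertilised embryos on 2, gave log2 ratios of -1.46, 0.08, -0.34 and -0.50. By the brightest probe, none of these 3 inner arm chains was on the same side of 0 on all arrays.

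CCDC39, which with CCDC40 forms the molecular ruler that sets the repeat of arms and spokes along the doublet, was measured in both groups on all arrays. Its parthenote signals were 49.3, 41.1, 72.8 and 51.6 and its fertilised signals were 17.2, 26.6, 14.9 and 13.5. The mean log2 ratio was 1.59 ± 0.72 (SD, n = 4), lowest on array 2 at 0.63.

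FOXJ1, the transcription factor that switches on axoneme genes, was not well above background on any array in either channel. Its parthenote signals were 4.25, 3.68, 3.63 and 3.18 and its fertilised signals were 3.14, 2.75, 2.86 and 2.59, and no fold is given. It had 1 probe on the array, so its level in these embryos was not detectable here.

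Of the genes tied to ciliated cells without a fixed place in the axoneme, CAPS, a calcium-binding protein known as calcyphosine, had parthenote signals of 1639, 839, 2384 and 1543 and fertilised signals of 281, 241, 372 and 245. The log2 ratios averaged 2.42 ± 0.42 (SD, n = 4), with 5 probes from 2.42 to 2.54. CAPSL, its relative, had parthenote signals of 96.8, 50.2, 185 and 99.9 and fertilised signals of 4.58, 4.68, 6.22 and 2.57, and the difference was at least 2.53-fold. In both genes array 2 was lowest and array 3 highest in parthenotes.

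MLF1, a factor found in ciliated cells as well as in blood cells, had parthenote signals of 204, 109, 317 and 213 and fertilised signals of 20.8, 16.4, 21.1 and 17.9. The log2 ratio averaged 3.38 ± 0.50 (SD, n = 4), and its 4 probes gave 3.38 to 4.31. LRRIQ1, a leucine-rich repeat and IQ motif protein, had parthenote signals of 265, 124, 345 and 224 and fertilised signals of 156, 113, 106 and 111, with a mean log2 ratio of 0.91 ± 0.65 (SD, n = 4) and 3 probes from 0.91 to 1.78. The transcripts of MLF1 and LRRIQ1 were named as the study named them. SPAG4, a nuclear envelope protein that the words found but that lies outside the axoneme, had log2 ratios of 0.12, 0.41, 0.54 and 0.20.

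**Figure D3:**
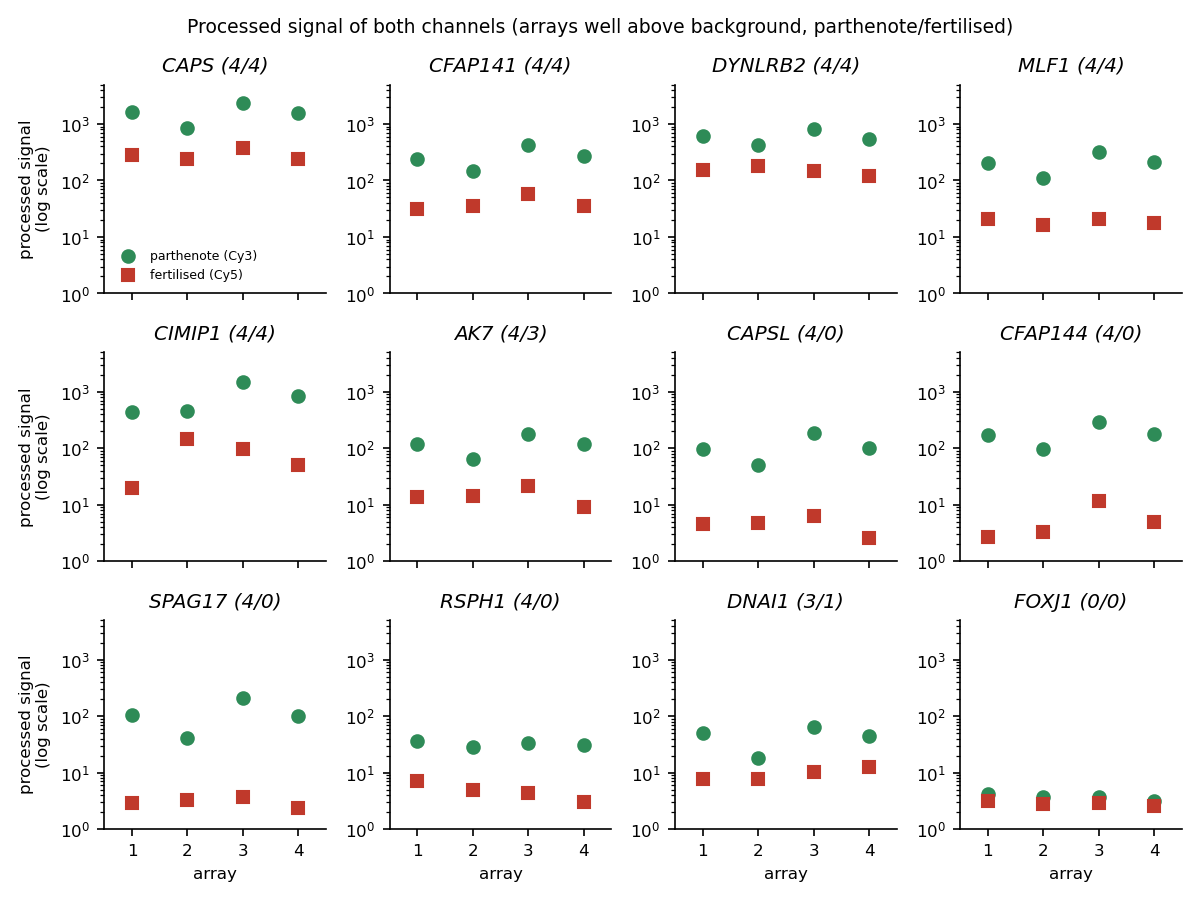
Processed signal on a log scale (y axis) on each of the 4 arrays (x axis) for 12 of the genes, parthenote pools as green circles and fertilised pools as red squares; the numbers after each name are the arrays on which the parthenote and the fertilised channel were well above background. The channels are apart on every array in all panels but FOXJ1, the parthenote points dip on array 2 and peak on array 3 in most panels, and levels are not comparable between panels because the probes differ.

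The parthenote pools differed from one another in the same way for most of these genes. Among the 14 genes well above background in parthenotes on all arrays, the parthenote signal was lowest on array 2 in 12 and highest on array 3 in 13. Relative to each gene's own mean, the median log2 signal was 0.07 on array 1, -0.82 on array 2, 0.65 on array 3 and 0.04 on array 4. From array 2 to array 3 the signal was higher by a median factor of 2.82, with the genes from 1.19 for SPAG4 to 5.13 for SPAG17.

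In the fertilised channel of the same genes the medians were 0.03, -0.04, 0.21 and -0.23, and the median factor from array 2 to array 3 was 1.09. The fertilised signal of 5 of the 14 genes was near background on at least 1 array, which leaves 9 measured in both groups throughout. In these 9 the medians on arrays 2 and 3 were -0.81 and 0.62 in parthenotes and -0.12 and -0.0044 in fertilised embryos. The genes were not alike in this, since 4 of the 14, CIMIP1, CCDC39, CFAP144 and RSPH1, had a wider range over the arrays in the fertilised channel than in the parthenote channel, and the first 2 of these were among the 9. Over all 7100 named genes detected in the same way, the parthenote medians were 0.06, 0.06, -0.01 and -0.10, and array 2 was lowest in 10.3% of genes and array 3 highest in 18.1%. The log2 ratio, which holds the same parthenote signal, was lowest on array 2 in 11 of the 14 genes, and in 1417 of the 7100. These are descriptions of 4 pools, and a difference between pools has no replicate.

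**Figure D4:**
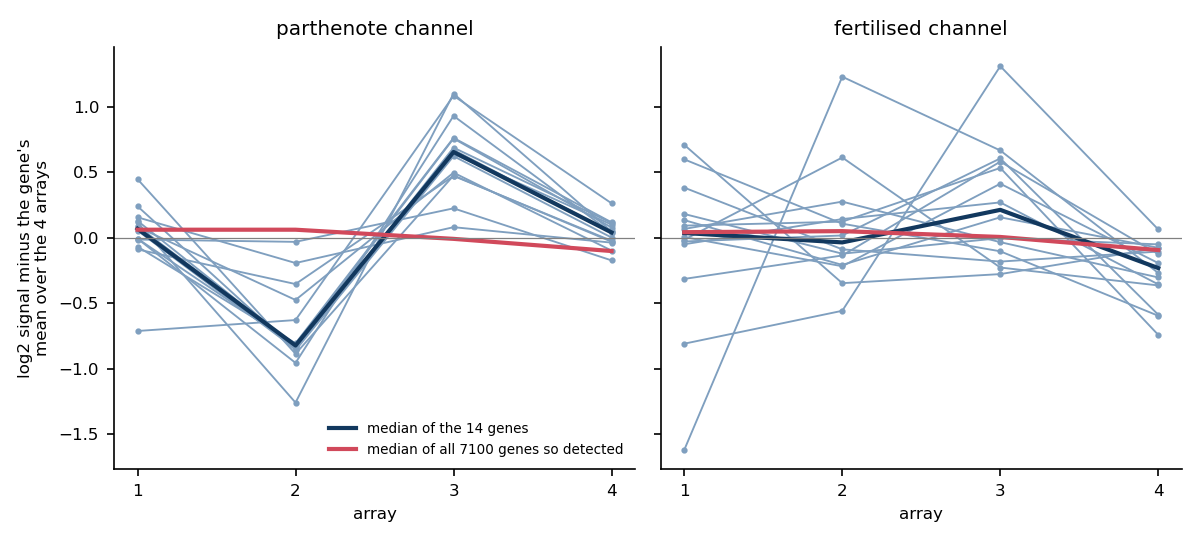
Log2 signal minus the gene's own mean over the 4 arrays (y axis) by array (x axis), in the parthenote channel (left) and the fertilised channel (right), with a thin line for each of the 14 genes well above background in parthenotes on all arrays. The dark line is their median, from -0.82 on array 2 to 0.65 on array 3 in parthenotes, and the red line is the median of all 7100 named genes detected in the same way, which stays between -0.10 and 0.06.

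Genes of the axoneme and of cilia outside the family were counted in the same way. The lists held 75 further genes with a named probe. Of these, 7 were dynein arm assembly factors, 8 ciliation genes and 10 other cilium-linked genes, and the rest belonged to axoneme parts. The median log2 ratio of the 75 was 0.85, between the 1.98 of the family and the 0.00 of all named genes. In the limma fit 29 of the 75 passed as higher and 4 as lower, where 11.6% and 12.3% of all named genes did. Of the 29, the assembly, ciliation and cilium-linked lists gave 2, 1 and 6. Of the 23 that passed as higher and were well above background in parthenotes on all arrays, the parthenote signal was lowest on array 2 in 18 and highest on array 3 in 21.

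In the outer arm list, 1 of 4 further genes passed as higher, ODAD2, a docking complex protein, with parthenote signals of 93.7, 75.97, 314 and 154 and fertilised signals of 3.51, 4.18, 12.7 and 7.73. The latter were well above background on 1 array, so no size is given. In the inner arm list both further genes did, and DNAI3 was well above background in parthenotes on all arrays and in fertilised embryos on none, a difference of at least 1.96-fold. DNAI7 was measured in both groups, with a mean log2 ratio of 0.50 ± 0.09 (SD, n = 4).

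The factors that assemble dynein arms in the cytoplasm were mixed, as 2 of 7 passed as higher and 2 as lower. DNAAF11 was at least 2.08-fold higher in parthenotes, and CFAP300 had a mean log2 ratio of 2.27 ± 0.40 (SD, n = 4). DNAAF10 and CFAP298 were lower, with mean log2 ratios of -0.33 ± 0.07 and -0.08 ± 0.02 (SD, n = 4), and each was measured in both groups throughout.

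In the list of the ruler and the nexin link, which ties neighbouring doublets together, 3 of 10 further genes passed as higher and 1 as lower. CFAP43 and CFAP44, of the tether of an inner arm, were well above background in parthenotes on all arrays and in fertilised embryos on 1 and 2 arrays, so the sizes of their ratios rest partly on background. The log2 ratios of CFAP43 were 4.26, 4.10, 5.59 and 2.38 and those of CFAP44 were 1.97, 1.84, 2.88 and 2.21, and IQCA1 was at least 2.45-fold higher. GAS8, a core protein of the nexin link, was lower, at -0.47 ± 0.11 (SD, n = 4). Of 7 further radial spoke genes only IQUB passed, at least 1.37-fold higher, though well above background in parthenotes on 3 arrays only. Of 6 further genes of the central apparatus CFAP65 and CFAP70 passed. CFAP70, measured in both groups throughout, had a mean log2 ratio of 1.66 ± 0.52 (SD, n = 4), and CFAP65 was well above background in fertilised embryos on 1 array only.

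Among the microtubule inner proteins 11 of 21 further genes passed as higher and 0 as lower, of which CFAP20 changed sign when the arrays were median-centred after another background correction. CFAP210, CFAP52 and ENKUR were not well above background in fertilised embryos on any array, with differences of at least 1.73-fold, 1.46-fold and 1.70-fold. In parthenotes CFAP52 was well above background on 3 arrays only, and CFAP210 and ENKUR on all 4. CFAP126 was measured in both groups, with a mean log2 ratio of 2.24 ± 0.21 (SD, n = 4). Of 10 further cilium-linked genes 6 passed as higher, of which CETN2 changed sign under that centring. Among the others were SNTN, the tip protein sentan, and FANK1, with a mean log2 ratio of 2.25 ± 0.60 (SD, n = 4). SNTN was at least 1.31-fold higher, though well above background in parthenotes on 3 arrays only.

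The list of genes that switch on ciliation had a median log2 ratio of 0.16 over its 8 further genes, of which 4 were above 0 on all arrays. Of the 8, 1 passed as higher, E2F5, which changed sign under that centring, and 1 as lower. The lower one, CCNO, a cyclin-like protein needed to make the many basal bodies of a ciliated cell, had log2 ratios of -1.41, -0.69, -0.83 and -1.16. RFX3, a factor that works with FOXJ1, and ULK4 had mean log2 ratios of 0.93 ± 0.69 and 0.53 ± 0.23 (SD, n = 4) and did not pass. The factors GMNC, MYB and DEUP1 were not well above background in either channel on any array.

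Motors and carriers that most cells use had medians closer to 0 than that of the family. The 14 genes of cytoplasmic dynein and dynactin lay between -0.16 and 0.50 with a median log2 ratio of 0.13, and 6 passed as higher and 3 as lower, beside 11.6% and 12.3% of all named genes. All 6 higher ones changed sign under that centring. The 19 genes of intraflagellar transport, which builds every cilium including the immotile kind, lay between -0.24 and 0.57 with a median of 0.22. Of these, 3 passed as higher and 1 as lower, beside the same shares. The ratio was above 0 on all 4 arrays in 12 of the 19 and below 0 on all 4 in 1. Among all 10375 named genes, 2352 were above 0 on all 4 arrays and 2680 below. IFT57 and IFT74 had means of 0.57 and 0.38, DYNC2H1 had -0.24, and IFT172, the third higher one, changed sign under the same centring. All 19 were measured in both groups on every array.

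**Figure D5:**
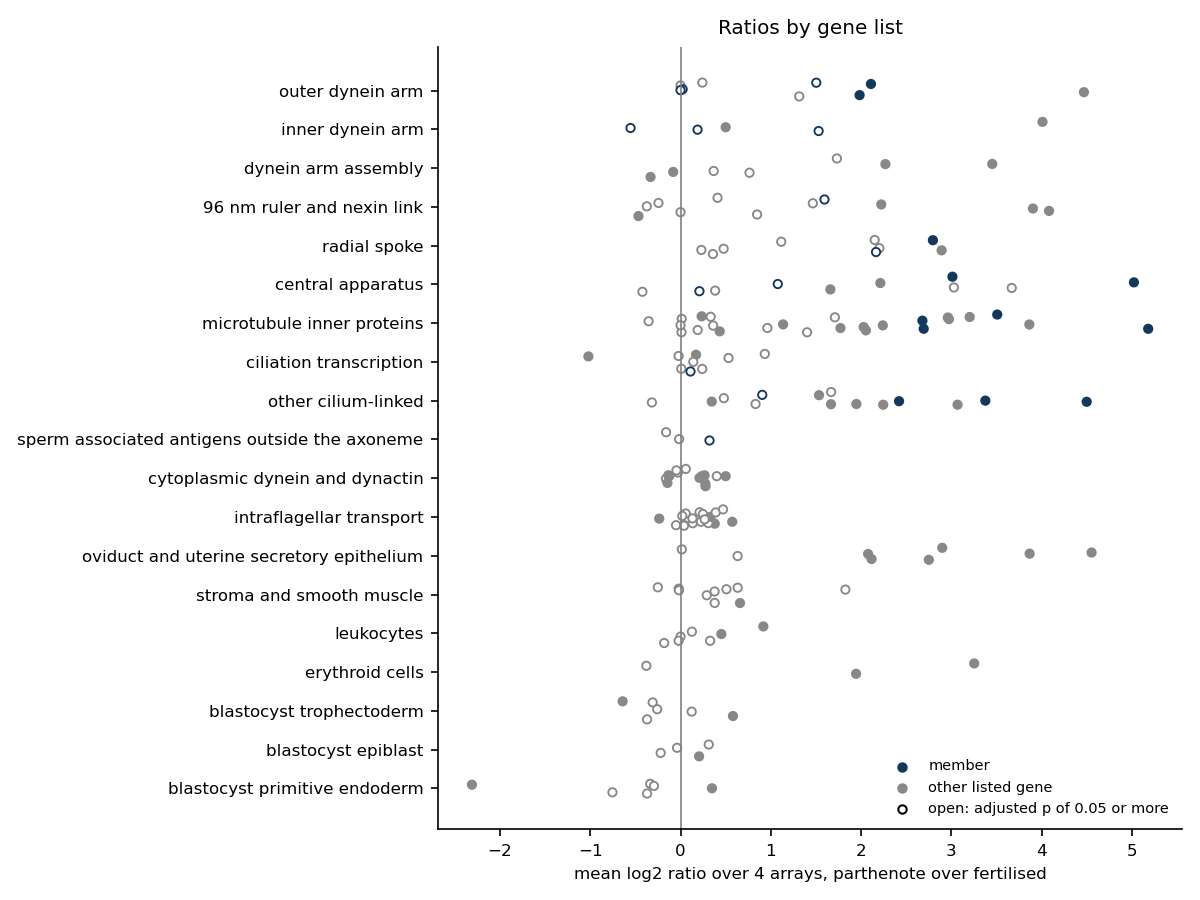
Mean log2 ratio over the 4 arrays (x axis) for each named gene of each list (rows), with genes of the family in dark blue, other listed genes in grey, and open points where the adjusted p of the limma fit was 0.05 or more. The rows of axoneme parts and ciliation reach from -1.02 to 5.18, and the rows of cytoplasmic dynein and of intraflagellar transport from -0.24 to 0.57.

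The labelled tissue was checked against its markers. All 6 trophectoderm genes and all 4 epiblast genes with a named probe, among them KRT8 and POU5F1, were measured in both groups on every array, while of 6 primitive endoderm genes 4 were so in parthenotes and 5 in fertilised embryos. The median log2 ratios were -0.28, 0.08 and -0.35. A ratio below 0 on all 4 arrays was found in 4 of the 6 trophectoderm genes, 1 of the 4 epiblast genes and 4 of the 6 primitive endoderm genes. A ratio above 0 on all 4 was found in 1, 2 and 1. Of all 10375 named genes, 2680 were below 0 on all 4 arrays and 2352 above. As higher, 1 gene of each list passed, and as lower 1, 0 and 1, where 11.6% and 12.3% of all named genes did. KRT8, POU5F1 and COL4A1 passed and changed sign under the median centring. AFP, the fetal plasma protein alpha-fetoprotein on the last list, passed as lower and was well above background in fertilised embryos on all arrays and in parthenotes on none, at least 1.24-fold higher in fertilised embryos.

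Markers of other cells were counted beside the same shares of all named genes, 11.6% as higher and 12.3% as lower. Of 8 genes of the secretory epithelium of oviduct and uterus, 6 passed as higher and 0 as lower, with a median log2 ratio of 2.43. Their summed signal ran from 10135 to 35778 in parthenotes and from 4850 to 8571 in fertilised embryos. Such a sum adds unlike probes and follows the brightest of them, so sums are not compared between lists. On array 1 WFDC2 gave 4513 of the 5777 in fertilised embryos, and OVGP1 alone ran from 3014 to 19178 in parthenotes. OVGP1, the oviductal glycoprotein, had log2 ratios of 3.95, 3.46, 3.91 and 4.14. In parthenotes 7 of these genes were well above background on all arrays, with median deviations of -0.17, -0.48, 0.72 and 0.15 on arrays 1 to 4. Of the 7, 5 were lowest on array 2 and 5 highest on array 3. SPP1 was highest on array 2 and lowest on array 3, with parthenote signals of 256, 382, 238 and 279, and WFDC2 was highest on array 2. In fertilised embryos the medians of the same 7 genes were -0.12, -0.31, 0.52 and 0.08. There 2 of the 7 were lowest on array 2 and 4 highest on array 3. WFDC2, of the same list, had a mean of 0.01, and ESR1 was not well above background in either channel.

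Of 3 erythroid genes, 2 passed as higher, the globin HBB2 and ALAS2. The remaining one, SLC4A1, had log2 ratios of -0.18, -0.32, -0.35 and -0.66 and was well above background in fertilised embryos on 1 array and in parthenotes on none. The list's summed signal ran from 47330 to 101306 in parthenotes and from 3989 to 18255 in fertilised embryos. Of 10 genes of stroma and smooth muscle, with a median log2 ratio of 0.38, 1 passed as higher, TAGLN, which changed sign under the median centring. In parthenotes 4 of the 10 were well above background on all arrays, and in fertilised embryos 5. COL1A1, ACTA2, MYH11 and PDGFRB were not well above background in either channel. The ratio was above 0 on all 4 arrays in 4 of the 10, and below 0 on all 4 in 0. The summed signal of that list ran from 3664 to 5074 and from 2342 to 3223. Of 7 leukocyte genes, with a median log2 ratio of 0.13, 2 passed as higher, CD14 and CD68. In parthenotes 4 of the 7 were well above background on all arrays and in fertilised embryos 5, while PTPRC and CD3E were not well above background. The summed signal of the leukocyte list ran from 403.7 to 427 and from 273 to 288. The summed signal of the 25 axoneme genes ran from 2845 to 7510 in parthenotes and from 895 to 1164 in fertilised embryos. Within it CAPS alone ran from 839 to 2384 and from 241 to 372. The part of maternal cells or RNA in any of these values was not tested.

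Over the whole series, 43595 probes were tested on the 4 arrays, and between 25805 and 27835 spots per channel and array were well above background. As higher in parthenotes 9.53% of the probes passed, and as lower 11.1%. The number of arrays limits the precision, and leaving out array 4 left 0 of the 25 axoneme genes past the threshold, while leaving out array 3 left 2, CFAP144 and MLF1, and leaving out array 1 left 6.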

How the data were processed

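The 4 arrays compared pooled day 6 rabbit blastocysts, parthenotes in Cy3 and fertilised embryos in Cy5, and array numbers were taken from the labels. Per the file headers and labels, the authors extracted spot intensity with Agilent Feature Extraction 10.10.1.1, and the deposited processed intensities were already background-subtracted and dye-normalised. The deposited log10 ratio of Cy5 over Cy3 in these files was turned to log2 of parthenote over fertilised. The authors' value table held the same log10 ratios with the sign turned, within 1.66e-05 on the log2 scale. A ratio of 0 is deposited where both channels lay at background.

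Control spots were left out, outlier spots marked by the software were set aside, and replicate spots of each probe were averaged, which left 43603 probes, of which 43595 had a value on at least 3 arrays. The mean ratio of each probe was tested against 0 with limma 3.58.1 in R 4.3.3 (two-sided, Benjamini-Hochberg over all probes tested, threshold 0.05). Probes were named by accessions, gene identifiers and descriptions with RefSeq's gene table for the assembly mOryCun1.1, used for names only. Of the probes 23414 received a gene symbol. Tables were made with Python 3.11.15, pandas 2.3.3 and matplotlib 3.10.9.

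The genes and the lists were chosen with earlier results of these data known. By rule the 17 listed genes are named by their brightest probe, the word-found genes by axoneme part, and up to 5 genes per list that passed, in order of mean ratio. The values of 1 listed gene are not reported here. The ratio within an array was used as the pairing because each array carried 1 pool of each group. On each array the channels' deviations from their group means correlated by 0.60 to 0.65. Between arrays they correlated by -0.28 to -0.15, values that centring each channel on its own mean pulls below 0. The bounds were computed from normexp-corrected signals (offset 50) after loess and between-array quantile normalisation. On simulated ratios for this comparison, with the spread of 43527 real probes, the fit recovered 36 percent of 100 probes changed by 1 log2 unit and 85 percent of 100 changed by 3. Alternatives were another background correction with loess or median centring, plain signal ratios, a filter on dim probes, outlier spots kept, the plain t-test of the ratios, unpaired channels and leaving out each array.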

Additional observations from a re-analysis of the deposited data

Results flagged for a closer look

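Over the 4 arrays 1 value stood apart from the other 3 in 2 of the 19 genes tested for it. The log2 ratios of CFAP141 were 2.94, 2.02, 2.88 and 2.94 on arrays 1 to 4, and the gap of array 2 to its nearest neighbour was 0.929 of the whole range. The log2 ratios of CAPS were 2.54, 1.80, 2.68 and 2.66, with a gap of 0.847 of the range, again at array 2. Chance gives such a gap in about 1 of 20 groups. In both genes the parthenote signal was lowest on array 2.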

How the results depend on the processing

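The direction of the 12 genes that passed as higher held under every alternative, and 0 genes of the family passed as lower under any. The 4 arrays, the dim fertilised channel and the surrogate values at background limit the sizes. Leaving out each array in turn gave 1239 to 5736 probes past the threshold in place of 8996. It left 0 to 10 genes of the family as higher in place of 12, with medians of 1.80 to 2.23 in place of 1.98. Of the further genes on the axoneme and cilium lists, 5 to 15 passed as higher in place of 29. Leaving out array 4, array 3 and array 1 left 0, 2 and 6 genes of the family and 5, 8 and 12 further genes, and leaving out array 2 left 10 and 15; fewer arrays were fitted. With the pairing within arrays dropped (no replicate block), 16358 probes, 21 genes of the family and 46 further genes passed. The plain t-test of the ratios called 4435 probes and 16 further genes. The ratio of processed signals called 21399 probes, 20 genes of the family and 52 further genes, and of the called probes 65.0% were higher, against 46.2% in the limma fit of the deposited ratios and 68.0% without the pairing. Normexp with median centring called 31610 probes, 23 genes of the family and 55 further genes. With normexp the median of the family was 0.55 after loess, 0.62 after loess with the local backgrounds repaired, a setting added after seeing the data that called 20 genes of the family and 46 further genes, and 0.58 after median centring. Normexp adds an offset of 50 to every signal, which pulls ratios of dim probes towards 0. With only genes measured in both groups on every array, also added later, 9 were left, of which 5 passed. The dim filter left 15 genes, and DNAI1 and TEKT3 were not tested under it. Of the 25 single ratios, 13 moved by more than their SD under normexp with loess and 18 under median centring, and 2 without the pairing. With the mean of all probes a gene was counted where most of its probes passed, and 12 genes did.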
